A study of Bos taurus with 29 samples.

Results

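Proenkephalin (PENK, ENSBTAG00000004924) and prodynorphin (PDYN, ENSBTAG00000045520) are the 2 opioid precursor genes described here, chosen by name from the 24596 genes of the deposited expression table. Their mRNA was measured by RNA sequencing in the remaining hypothalamic tissue, the hypothalamus from which the arcuate nucleus had been removed, of 29 Angus × Holstein-Friesian heifer calves at 21 weeks of age. The 14 calves on the high plane of nutrition (HI) received 1.5 kg of milk replacer in 10 litres per day with free access to concentrates, for a target gain of 1.2 kg per day. The 15 calves on the moderate plane (MOD) were given 0.5 kg of milk replacer daily in 4 litres, with concentrates held to 1 kg, for a target gain of 0.5 kg per day. In both groups a calf phase of 8 weeks was followed by a post-weaning phase of 11 weeks, in which HI calves had concentrates freely and MOD calves 1 kg per day, both with hay. Each library came from 1 calf.

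PENK encodes a precursor that is cleaved into the enkephalins, short peptides that act mainly on delta and mu opioid receptors. PDYN encodes the precursor of the dynorphins and neoendorphins, which act mainly on the kappa opioid receptor. Both precursors are packed into secretory granules and cut by prohormone convertases. Dynorphin is known to be made in vasopressin neurons of the magnocellular nuclei and in orexin neurons of the lateral hypothalamus, and enkephalin is made in many hypothalamic and striatal neurons. Vasopressin (AVP, ENSBTAG00000008027) and orexin (HCRT, ENSBTAG00000000665) therefore serve as anatomical references, because their neurons lie in known and narrow places. The question was how far the precursors differ between the diets, whether they vary together, and whether either follows AVP or HCRT.

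Levels are normalised CPM, the reads of a gene scaled to a common library size that the trimmed mean of M-values method (TMM) adjusts, and recovered totals were 11820640 to 17206435 reads per calf. In a distance plot over all genes, 4 calves stood apart from the rest, MOD calves 1689, 1395 and 2551 and HI calf 2120, with mean distances of 3.80 to 4.28 on the log2 scale against 2.94 for the next calf. The diet differences, the log2 ratio of the precursors and the correlations of the precursors with each other, AVP and HCRT are given with and without these 4 calves. In MOD calf 1395 both precursors had their lowest value of all calves. The names of the sequencing files began with 1 of 5 numbers, whose meaning the labels do not give, and 4 of them held 6 calves and the fifth held 5. Values within these numbers are given as values within possible batches. Tissue pieces, not cells, were sequenced, so that fewer cells making a peptide and less of its RNA per cell cannot be told apart.

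PENK differed 256-fold between the lowest and the highest calf. In HI it was 1.18 CPM at the lowest, 4.82 at the median and 54.9 at the highest, and in MOD it was 0.603, 15.7 and 154.6 CPM. The groups overlapped, in that all 14 HI calves lay above the lowest MOD calf, whereas 3 MOD calves (911, 2532 and 1392) lay above every HI calf. The top of the MOD range was formed by calf 911 with 154.6 CPM, calf 2532 with 136.0 CPM and calf 1392 with 93.8 CPM. In HI, calves 986 (54.9 CPM) and 1531 (48.6 CPM) stood above the others, which reached 18.9 CPM at most.

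PDYN differed 198-fold between the lowest and the highest calf, and 26.1-fold within HI. The wider range rested on 1 calf, MOD calf 1395 (0.603 CPM), and the next lowest MOD calf, 2551, had 11.7 CPM. HI calves had 4.57 CPM at the lowest, 18.1 at the median and 119.2 at the highest, and MOD calves had 0.603, 24.7 and 114.0 CPM. The groups overlapped fully at the top, since the highest calf of all, 3620, was a HI calf and 0 MOD calves lay above it. Calf 3620 held 33.5% of the summed PDYN signal of the HI group, and the next HI calf, 2570, had 44.2 CPM. In MOD, 5 calves were over 50 CPM (1689, 1690, 2346, 1082 and 1057), against 1 calf in HI.

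Counting error was small beside these differences. The lowest PENK and PDYN values, both in MOD calf 1395, rested on 9 reads each, with an exact Poisson 95% interval of 0.276 to 1.15 CPM. The highest PENK value, in calf 911, rested on 2024 reads, with an interval of 148.0 to 161.5 CPM. These intervals cover counting error only. On the log2(CPM + 1) scale the SD of PENK over the 29 calves was 1.99, which ranked 13 of the 13785 genes tested, and that of PDYN was 1.40, which ranked 109, where the median gene had an SD of 0.43. AVP (SD 3.37) ranked 1 and HCRT (SD 2.35) ranked 6. Counting error was larger for these references, at 22.4% for AVP at its median of 20 reads and 30.2% for HCRT at its median of 11 reads.

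**Figure D1:**
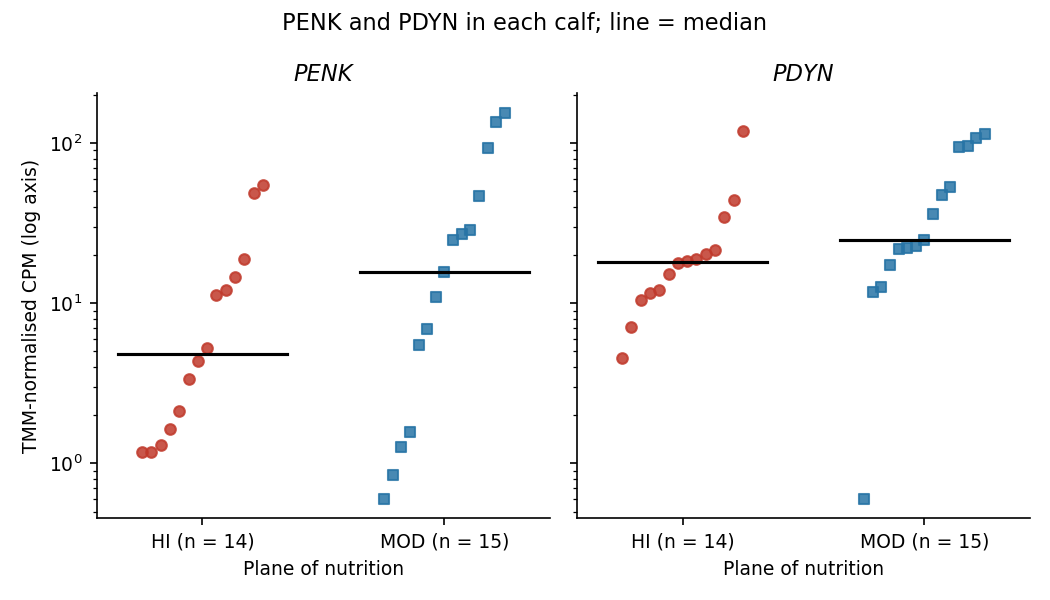
PENK (left) and PDYN (right) in each of 14 HI (red circles) and 15 MOD (blue squares) calves, as TMM-normalised CPM on a log axis, sorted within each group, with the group median as a line. The groups overlap for both genes, the 3 highest PENK values (93.8 to 154.6 CPM) are from MOD calves, and the highest PDYN value (119.2 CPM) is from a HI calf.

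Neither precursor differed between the diets beyond the spread between calves. For PENK the log2 fold change of HI over MOD was -0.98 (standard error 0.69, limma adjusted p = 0.999), which is 0.507 times the MOD level with a 95% interval of 0.190 to 1.35 times on the log2(CPM + 1) scale. For PDYN it was -0.67 (standard error 0.49, limma adjusted p = 0.999), which is 0.629 times the MOD level with an interval of 0.315 to 1.25 times. By size of the log2 fold change, PENK was the second lowest and PDYN the 21st lowest of 13785 genes, but by p-value they ranked only 1006 and 1138. A call required an adjusted p under 0.10 and a fold change over 1.5, and limma called 0 genes, which is 0% of those tested, with 179 genes (1.3%) at an unadjusted p under 0.05. DESeq2 on the recovered reads called 2 genes (0.0145%), AVP, with a log2 fold change of -4.54 (DESeq2 adjusted p = 0.0812), and the collagen gene COL15A1, named here after its values were seen, with 1.61 (DESeq2 adjusted p = 0.0812). PENK and PDYN were not among them. The study reported both precursors as lower in HI in this tissue by the exact test of edgeR, whereas that test on the recovered reads called neither here. Both are thus in the list of genes that the study selected by diet on these same samples. Their presence here is not independent evidence of a direction.

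The size of the PENK difference depended on the test. Limma compared means of log2(CPM + 1), whereas the log2 ratio of the mean CPM of HI over MOD was -1.52. How far this choice of mean sets the differences between the tests was not tested. On recovered reads, the exact test of edgeR gave -1.52 (p = 0.0279 unadjusted, adjusted p = 1, with 1.52% of all genes at an unadjusted p under 0.05). DESeq2 gave -1.52 (p = 0.0282 unadjusted, adjusted p = 0.9997, with 2.21% of all genes at that level). The quasi-likelihood test of edgeR gave -1.52 (p = 0.0490 unadjusted, adjusted p = 0.999, with 1.62% of all genes at that level). Limma-voom with sample quality weights, also on recovered reads, gave -0.66. For PDYN the exact test gave -0.87, and DESeq2 and the quasi-likelihood test each gave -0.86. Limma-voom with weights gave -1.04 for PDYN (p = 0.0146 unadjusted, with 12.6% of all genes at an unadjusted p under 0.05). All adjusted p-values of both genes were above the threshold. A permutation of the diets over the 29 calves, applied to the means on the log2 scale, gave p = 0.188 for PENK and p = 0.204 for PDYN, two-sided. Without the 4 calves that stood apart, the log2 fold change of PENK was -1.22 (standard error 0.74, limma p = 0.112 unadjusted, adjusted p = 0.869). That of PDYN was -0.87 (standard error 0.39, limma p = 0.0342 unadjusted, adjusted p = 0.824). In this setting 6.01% of all genes had an unadjusted p under 0.05.

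Within the file-name numbers the direction did not hold for either gene. The HI minus MOD difference in mean log2(CPM + 1) of PENK was -0.81, -3.76 and -2.30 in 3 of the numbers and 0.25 and 2.02 in the other two, with 2 to 4 calves per diet in each. For PDYN it was -1.17, -2.10 and -1.70 in 3 numbers and 0.07 and 1.12 in the others. With the number as a factor over all calves, the log2 fold changes were -0.96 for PENK and -0.82 for PDYN, both with limma adjusted p = 1.00.

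The anatomical references changed the fit for PENK and not for PDYN. With AVP as covariate the diet log2 fold change of PENK was -0.11 (standard error 0.50, limma adjusted p = 0.999), against -0.98 without it. With HCRT alone it was -0.94, and with both references -0.14. PDYN kept values of -0.62 with AVP, -0.65 with HCRT and -0.67 with both. By limma the log2 fold change of AVP itself was -1.96, with a standard error of 1.16 and an adjusted p of 0.999, and that of HCRT was -0.13, with a standard error of 0.84. DESeq2 called AVP between the diets (-4.54, adjusted p = 0.0812), and r of AVP was 0.76 with PENK and 0.13 with PDYN. A covariate that is lower in HI and follows PENK lowers the PENK difference by construction. Diet and the part of the tissue sampled cannot be told apart in this fit.

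**Figure D2:**
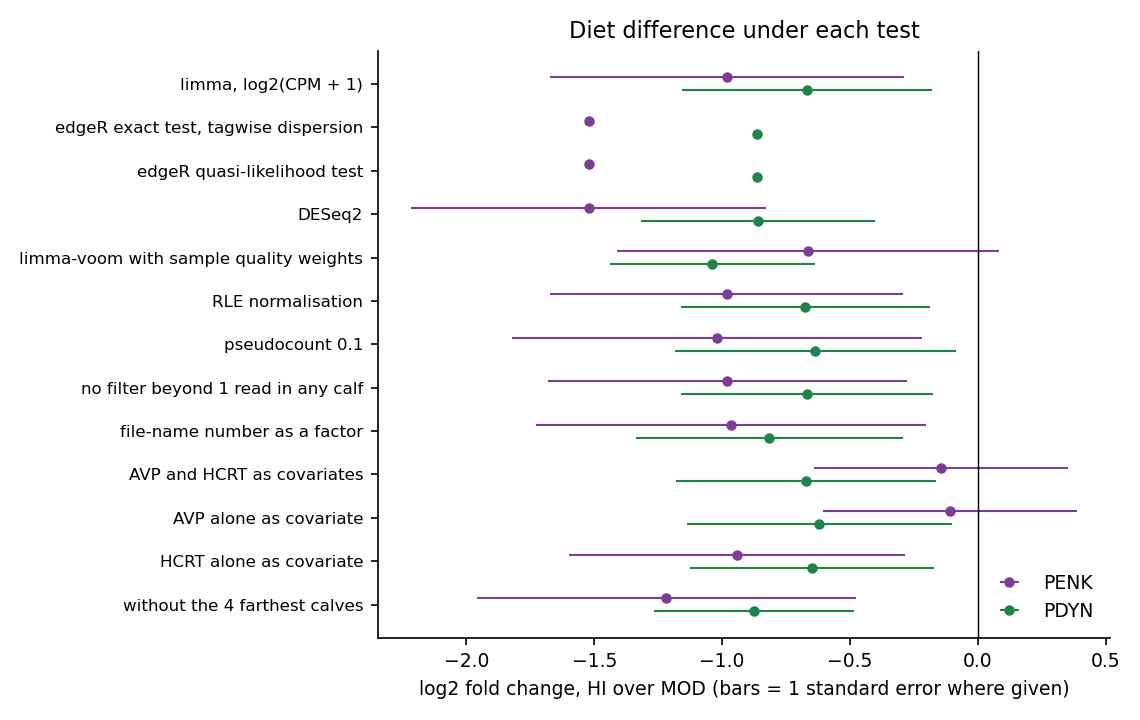
Diet log2 fold change (HI over MOD, horizontal axis) of PENK (purple) and PDYN (green) under each test or setting, with bars of 1 standard error where the test gives one. All values are below 0, and the PENK value moves from -0.98 to -0.11 when AVP enters the fit, whereas that of PDYN moves from -0.67 to -0.62.

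PENK and PDYN did not vary together detectably. Over the 29 calves Pearson's r was 0.20 (permutation p = 0.311, adjusted over 5 pairs 0.389) and Spearman's rho was 0.21 (permutation p = 0.267, adjusted 0.334). Leaving out calves 911 and 2532, which lay farthest from the PENK median, gave r = 0.24, and without the 4 calves that stood apart it was 0.08. None of the 5 calves highest in PENK was among the 5 highest in PDYN (0 shared), and 2 of the 10 highest were shared. MOD calf 1690 had 0.842 CPM of PENK beside 108.3 CPM of PDYN. At the other end, MOD calf 911 had 154.6 CPM of PENK beside 22.8 CPM of PDYN. The 6 calves highest in PENK had 20.2 to 22.8 CPM of PDYN, except calf 2346, which was high in both (46.6 CPM of PENK and 96.4 CPM of PDYN).

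Against the medians of all calves, 11.0 CPM for PENK and 21.5 CPM for PDYN, 8 calves were above both, 6 above that of PENK alone, 6 above that of PDYN alone and 9 above neither. By diet, 7 of 14 HI calves and 2 of 15 MOD calves were above neither, and 2 HI and 6 MOD calves were above both. The log2 ratio of PENK to PDYN, on CPM + 1 and thus without a meaning for which gene is the more abundant, was -1.35 ± 1.61 (SD, n = 14) in HI and -1.04 ± 2.68 (SD, n = 15) in MOD. The difference of -0.31 was within the spread between calves (permutation p = 0.708, two-sided). Without the 4 calves that stood apart the difference was -0.34 (permutation p = 0.708, two-sided). The ratio ran from -5.89 in calf 1690 to 2.71 in calf 911, both on MOD. Within HI the correlation of the precursors was 0.34 and within MOD 0.05, and these did not differ detectably (difference 0.29, permutation p = 0.595, adjusted over 5 pairs 0.795). In the 4 file-name numbers of 6 calves, r took values of 0.10, 0.49, 0.14 and 0.66 (exact permutation p from 0.136 to 0.806).

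**Figure D3:**
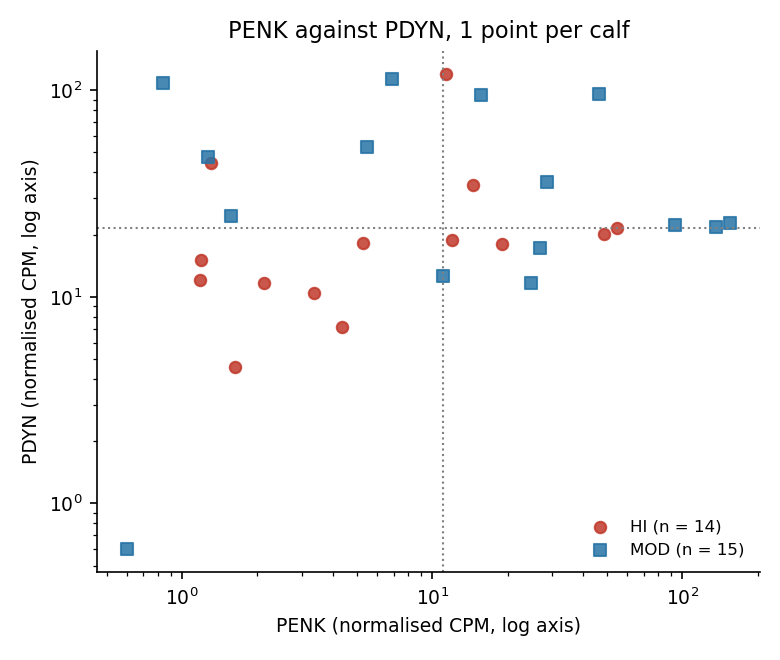
PENK (horizontal) against PDYN (vertical), both as normalised CPM on log axes, with 1 point per calf (HI red circles, MOD blue squares) and dotted lines at the medians of 11.0 and 21.5 CPM. The points spread over all quadrants (8, 6, 6 and 9 calves), and the calf at the lower left, low in both, is MOD calf 1395.

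PENK followed AVP. Pearson's r was 0.76 (permutation p = 1e-05, the smallest that 100000 permutations can give, adjusted over 5 pairs 5e-05) and Spearman's rho was 0.76 (permutation p = 2e-05, adjusted 1e-04). It was 0.78 without calves 911 and 2532 and 0.76 without the 4 calves that stood apart. Within HI it was 0.84 (permutation p = 2e-05, adjusted 1e-04) and within MOD 0.70 (permutation p = 0.00392, adjusted 0.0196), and the difference between the diets was not detectable (0.14, permutation p = 0.382, adjusted 0.795). Within the file-name numbers of 6 calves it took values of 0.62, 0.61, 0.88 and 0.89 (exact permutation p = 0.171, 0.143, 0.00139 and 0.0208, adjusted over 5 pairs 0.799, 0.543, 0.00694 and 0.0521).

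The highest calves were shared. The 10 calves with the most PENK were also the 10 calves with the most AVP (10 of 10 shared), 3 of them on HI and 7 on MOD. In these 10 calves AVP was 9.17 to 3472 CPM and PENK 18.9 to 154.6 CPM, while in the other 19 AVP was 0 to 3.45 CPM and PENK 0.603 to 15.7 CPM. The value of 0 was in 1 HI calf, where 3 reads, the limit that a count of 0 allows, would be 0.236 CPM. Inside either set the relation was not detectable, with r = 0.23 in the 10 calves over 5 CPM of AVP (permutation p = 0.509) and r = 0.19 in the 19 calves under it (permutation p = 0.436), a split chosen after the values were seen. The split is on AVP itself and narrows its range, which lowers r by construction, so that it does not show whether the relation holds inside the sets. Calf 911, the highest in PENK, had only 9.17 CPM of AVP, and calf 2346, the highest in AVP at 3472 CPM, had 46.6 CPM of PENK.

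PDYN did not follow AVP detectably, with r = 0.13 (permutation p = 0.510, adjusted over 5 pairs 0.510) and rho = 0.23 (permutation p = 0.231, adjusted 0.334). The 2 genes lie on the same chromosome, with 16 protein-coding genes between them in the RefSeq annotation of ARS-UCD2.0. Without the 2 calves farthest from the PDYN median r was 0.11, and without the 4 calves that stood apart 0.12. Without calf 2346 alone it was -0.017. In the 10 calves over 5 CPM of AVP, PDYN was 11.7 to 96.4 CPM, inside the range of 0.603 to 119.2 CPM of the other 19. Under the same split r was 0.41 in the 10 calves (permutation p = 0.255) and 0.35 in the 19 (permutation p = 0.147), both above the value over all calves and above those of PENK in the same sets, differences that were not tested. Within 1 file-name number of 6 calves r reached 0.92 (exact permutation p = 0.00833, adjusted over 5 pairs 0.0417), and in the other three it was 0.27, -0.25 and 0.04.

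With HCRT neither precursor had a correlation past the threshold for correlations, an adjusted p under 0.05, over all calves. PENK had r = 0.36 with HCRT (permutation p = 0.0578, adjusted over 5 pairs 0.145) and rho = 0.36 (permutation p = 0.0542, adjusted 0.136). Without calves 911 and 2532, the 2 farthest from the PENK median, r was 0.57 (permutation p = 0.00173, adjusted 0.00432), so that this relation depended on single calves. Without the 4 calves that stood apart it was 0.43 (permutation p = 0.0326, adjusted 0.0814). Calf 911 had 0.153 CPM of HCRT (2 reads) beside the most PENK of all, and calf 2532 had 0.191 CPM (3 reads) beside 136.0 CPM of PENK. These HCRT values are near the floor of the measurement. Within HI r was 0.65 (permutation p = 0.0129, adjusted 0.0323) and within MOD 0.24 (permutation p = 0.389, adjusted 0.711), but the difference between the diets was not detectable (0.41, permutation p = 0.237, adjusted 0.795). Within the file-name numbers of 6 calves it was 0.18 to 0.59 (exact permutation p from 0.194 to 0.767).

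PDYN had r = 0.27 with HCRT (permutation p = 0.154, adjusted over 5 pairs 0.257) and rho = 0.10 (permutation p = 0.619, adjusted 0.619). Among the 5 calves highest in PDYN, 2 were among the 5 highest in HCRT, MOD calf 1689 (114.0 CPM of PDYN, 192.1 CPM of HCRT) and HI calf 3620 (119.2 and 41.1 CPM). In MOD calves 1690 and 1082, by contrast, PDYN of 108.3 and 95.2 CPM stood beside HCRT of 0.153 and 0.344 CPM (2 and 5 reads). Without calf 1689, r was 0.16, and without the 4 calves that stood apart 0.10. Within the file-name numbers of 6 calves it was -0.50 to 0.35 (exact permutation p from 0.331 to 0.772).

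**Figure D4:**
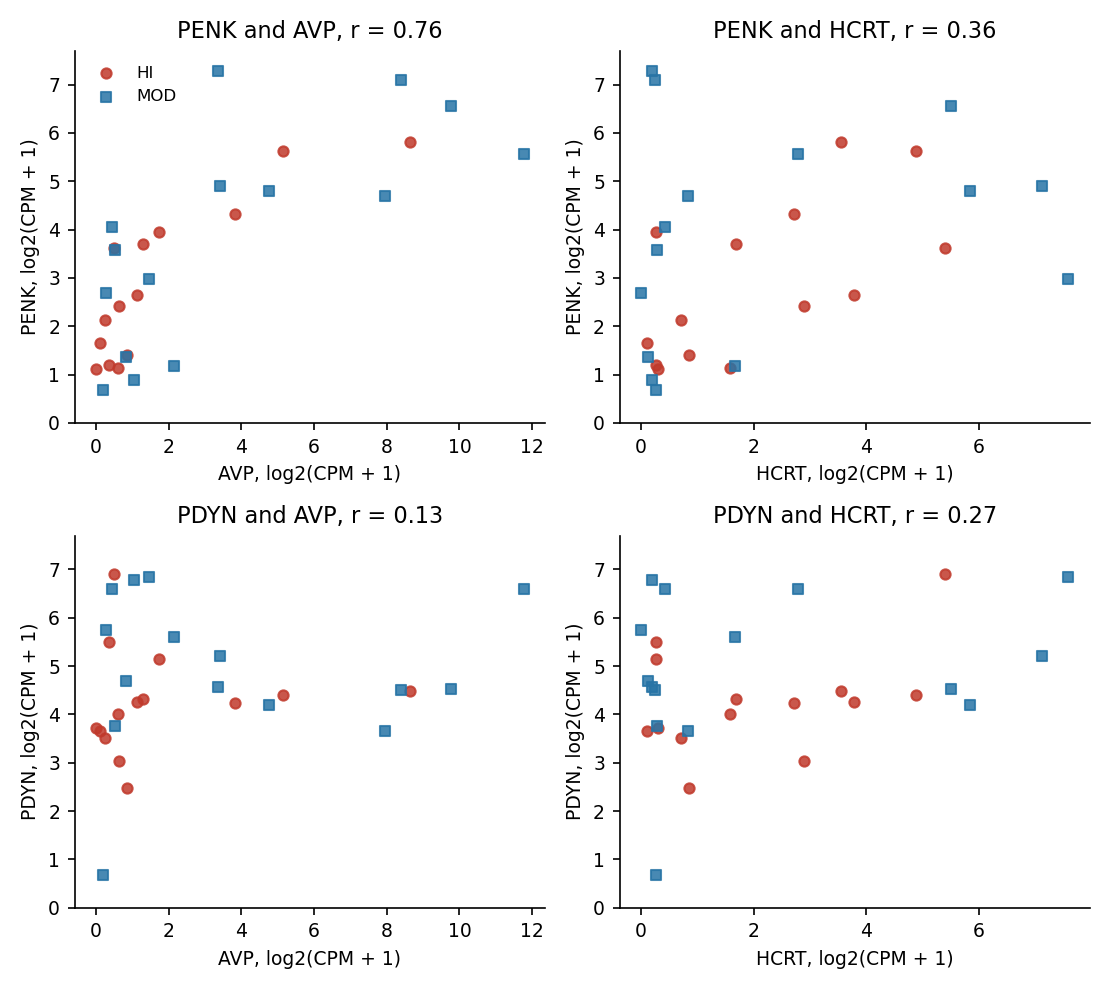
PENK (top) and PDYN (bottom) against AVP (left) and HCRT (right), each as log2(CPM + 1), with 1 point per calf (HI red circles, MOD blue squares) and Pearson's r over 29 calves above each panel. Calves with more AVP have more PENK (r = 0.76), r of PDYN with AVP is 0.13, and points against HCRT are scattered (r = 0.36 and 0.27).

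Of 35 symbols in the lists of opioid precursors, receptors, granule genes and accompanying peptides, 15 had an identifier in the study's gene tables, 13 of them beside PENK and PDYN, and 11 of these passed the filter. Limma called 0 of the 11 between the diets, as it did 0% of all genes. Of the 11, 3 had a positive and 8 a negative log2 fold change for HI, with a median of -0.21, beside a median of 0.02 over all genes, of which 42.9% were negative. The identifiers come mostly from lists of genes the study selected by diet, in this tissue or in the arcuate nucleus, so that these counts are not independent evidence.

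Among the other opioid precursors, POMC, the source of beta-endorphin and melanocortins, ranged from 12.3 to 94.7 CPM in HI and from 11.2 to 89.9 CPM in MOD. The diets differed by 0.00 on the log2 scale, with a standard error of 0.27, and its r was -0.05 with PENK and 0.02 with PDYN. The nociceptin precursor and the 4 opioid receptors had no identifier here and were not analysed. RGS14, a regulator of G protein signalling, had a median of 1.65 CPM in HI, one of 2.08 CPM in MOD, and r = 0.71 with PENK against -0.20 with PDYN. Of the genes for processing and granules, CHGA, which encodes the granule protein chromogranin A, was the 1 with an identifier. It had r = 0.46 with PDYN and 0.02 with PENK, with a median of 298 CPM in HI and one of 315 CPM in MOD. These and the following correlations are descriptions over the same 29 libraries.

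The peptides made beside dynorphin or enkephalin fell on the side of PENK or of neither gene. OXT (oxytocin), which is made in magnocellular neurons, had r = 0.75 with PENK and 0.08 with PDYN, and reached 777.9 CPM in HI and 1070 CPM in MOD. TAC1, the precursor of substance P and neurokinin A, had r = 0.74 with PENK and -0.05 with PDYN. Its medians were 4.51 CPM in HI and 10.1 CPM in MOD, with a log2 fold change of -0.68 (standard error 0.40, limma adjusted p = 0.999). GAL (galanin) had r = 0.25 and -0.06.

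Among the other hypothalamic peptides, CARTPT, the precursor of the feeding-related CART peptides, had r = 0.78 with PENK and 0.02 with PDYN. NPY (neuropeptide Y) had r = 0.55 with PENK and -0.23 with PDYN. PMCH, the precursor of melanin-concentrating hormone, had r = 0.34 and 0.21, close to those of HCRT in the same part of the hypothalamus. CALCB, which encodes a calcitonin gene-related peptide, did not pass the filter and had r = 0.79 with PENK and 0.04 with PDYN. Of the 11 genes past the filter, AVP, OXT, TAC1, CARTPT, NPY and RGS14 thus had r over 0.5 with PENK, and 0 had r over 0.5 with PDYN. Over all genes the shares were 1.96% with PENK and 3.34% with PDYN, so that 0 of 11 is near the share for PDYN.

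**Figure D5:**
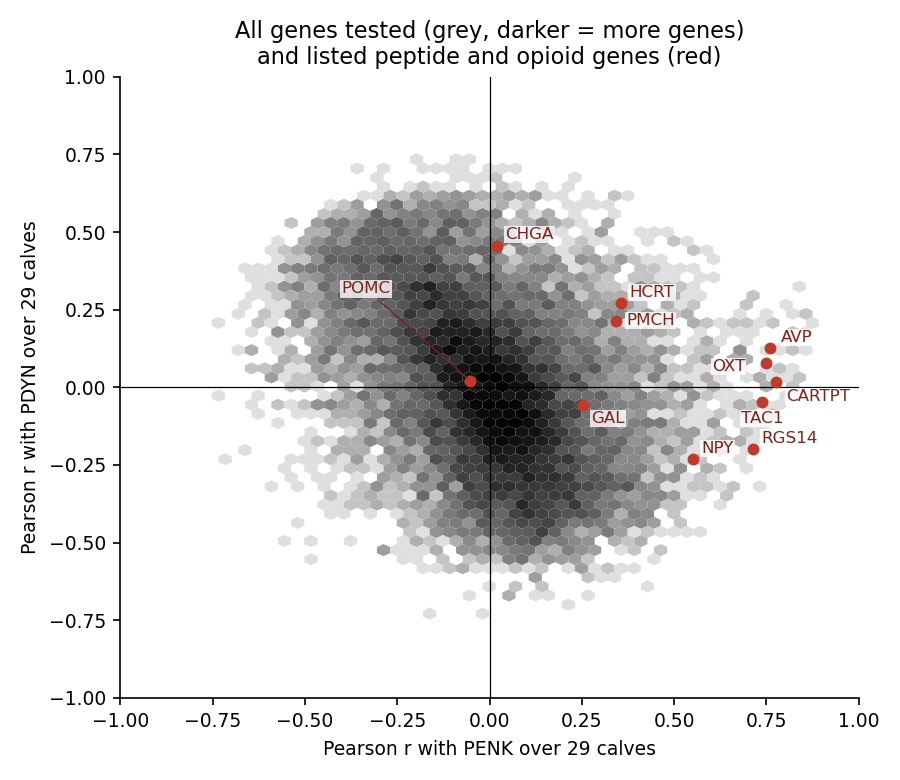
Pearson's r over 29 calves with PENK (horizontal) and with PDYN (vertical) for all genes tested (grey hexagons, darker where more genes fall, on a log scale of shade) and for the 11 listed peptide and opioid genes (red, named). AVP, OXT, CARTPT, TAC1, RGS14 and NPY lie at 0.55 to 0.78 with PENK and between -0.23 and 0.13 with PDYN, whereas CHGA lies at 0.02 and 0.46.

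Over all genes the precursors had different neighbours by correlation. PDYN ranked 2191 of 13784 among the genes most like PENK, and PENK ranked 3334 of 13784 among those most like PDYN. With PENK, 270 genes (1.96%) had r over 0.5, and with PDYN 460 genes (3.34%), but 0 genes had r over 0.5 with both. AVP ranked 29 by likeness to PENK and 4437 by likeness to PDYN, and HCRT ranked 733 and 2383.

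The named genes most like PENK were BAIAP3, a protein of dense-core vesicle traffic (r = 0.87, rank 2), NNAT (neuronatin, r = 0.85, rank 5), DUSP9, a phosphatase of MAP kinases (r = 0.83, rank 6), ARHGAP36 (r = 0.83, rank 8) and OTOF (otoferlin, r = 0.83, rank 9). All 5 are in the list that the study selected by diet on these samples, and only 114 identifiers carry a symbol, so that which genes could be named was set by that list. Their r with PDYN was 0.04 to 0.32. The mean of BAIAP3 was 74.2 CPM in HI (SD 58.6, n = 14) and 163 CPM in MOD (SD 124, n = 15), a log2 fold change of -0.75 with a standard error of 0.59 (limma adjusted p = 0.999). The named genes least like PENK were the serine protease KLK6 (r = -0.60, rank 13756) and HHATL (r = -0.53, rank 13689).

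The named genes most like PDYN were MYO5B, a motor protein of membrane traffic (r = 0.73, rank 3), PKIB, an inhibitor of protein kinase A (r = 0.60, rank 89), LYNX1, a modulator of nicotinic receptors (r = 0.55, rank 204), the copine CPNE9 (r = 0.49, rank 490) and the activity-induced transcription factor EGR1 (r = 0.49, rank 500). None of the 5 is in the study's diet list for this tissue, but MYO5B and EGR1 are among its diet genes in the arcuate nucleus. As for PENK, only genes with a symbol in the study's gene tables could be named. The r of the 5 with PENK was -0.49 to -0.0025. The named genes least like PDYN were ANGPTL7, a secreted angiopoietin-like protein (r = -0.70, rank 13782), and Gm8618 (r = -0.43, rank 13195). The mean of MYO5B was 11.4 CPM in HI (SD 6.53, n = 14) and 13.1 CPM in MOD (SD 11.1, n = 15).

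The other 34 genes of the study's diet list for this tissue that passed the filter lay mostly with PENK. Their median r with PENK was 0.56, beside 0.01 over all genes, and 19 of 34 (55.9%) had r over 0.5, beside 1.96% of all genes. With PDYN, itself a member of that list, their median r was 0.01, beside 0.00 over all genes, and 0 of 34 had r over 0.5, beside 3.34% of all genes. The list was chosen by the study on these same libraries.

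Marker genes of the regions a tissue piece could hold were examined as far as they had identifiers. The summed level of the magnocellular markers AVP and OXT (2 of 2 with an identifier) was 0.381 to 1178 CPM in HI and 0.134 to 4542 CPM in MOD, with r = 0.79 to PENK and 0.10 to PDYN. For the lateral hypothalamus, HCRT and PMCH (2 of 2) summed to 0.344 to 117.2 CPM in HI and 0.230 to 580.7 CPM in MOD, with r = 0.35 and 0.22. For the arcuate nucleus (4 of 4), the sum was 16.1 to 98.8 CPM in HI and 12.7 to 95.3 CPM in MOD, with r = 0.31 and -0.02, and AGRP was at 0 in 23 calves and at most 0.153 CPM. Taken singly, POMC, CARTPT and NPY had r of -0.05, 0.78 and 0.55 with PENK. For striatum and basal forebrain 2 of 9 markers had an identifier, ANO3 and SYNDIG1L, which summed to 32.3 to 105.3 CPM in HI and 9.32 to 95.6 CPM in MOD, with r = -0.17 to PENK and 0.34 to PDYN. The 2 markers went opposite ways. SYNDIG1L, the more abundant, had r = -0.19 with PENK and 0.38 with PDYN, and ANO3 had 0.12 and -0.14. For the anterior pituitary (2 of 3, PRL and CGA) the sum was 2.37 to 51.0 CPM in HI and 0.191 to 34.2 CPM in MOD, with r = -0.22 and -0.01. For blood (1 of 2), HBD was 0 to 3.06 CPM in HI and 0 to 2.07 CPM in MOD, with r = 0.22 and -0.04. The part of the tissue piece in the levels of PENK and PDYN was not tested.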

How the data were processed

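The authors used cutadapt for trimming, STAR for alignment to UMD3.1 and for counting, and edgeR for normalising the counts. The labels give STAR 2.6.1 and the study's methods another version. The deposited signal is CPM normalised by TMM. Whole reads were recovered for 100% of values (largest deviation 8.14e-05 reads), and the recomputed TMM factors differed by at most 1.71e-11. Symbols came from the study's gene tables (114 identifiers).

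Genes over 1 CPM in at least 14 calves (13785) were tested with limma 3.58.1 (trend, log2(CPM + 1)), with Benjamini-Hochberg adjustment. The study's exact test (edgeR 4.0.16), the quasi-likelihood test and DESeq2 1.42.0 on recovered reads, limma-voom, RLE normalisation, a pseudocount of 0.1, no filter and each calf left out were alternatives. The fits were tested on simulated data. Correlations used 100000 permutations, two-sided, or exact permutation for 6 calves. The members, lists and tests were chosen with earlier results of these data known. Named genes were PENK, PDYN, AVP and HCRT, every listed gene with an identifier, and, by likeness, the 5 highest and 2 lowest genes with symbols. Each library is labelled as 1 calf, and p-values measure the spread between calves.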

Additional observations from a re-analysis of the deposited data

How the results depend on the processing

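For PENK and PDYN the diet difference stayed below 0 under all 43 alternatives each and was not called under any of those that give a test, which leaves out the ratios of means and of medians. With each calf left out it was -1.21 to -0.74 for PENK and -0.97 to -0.53 for PDYN, and 0 genes were called. DESeq2 called 2 genes, AVP and COL15A1, where limma called 0. The medians, each with 1 CPM added, gave log2 ratios of -1.52 for PENK and -0.43 for PDYN. The log2 ratio of PENK to PDYN differed by -0.66 to -0.04 between the diets with each calf left out, the smallest without calf 911.

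The correlation of PENK with PDYN was 0.06 to 0.29 with each calf left out, lowest without calf 1395. That of PENK with AVP was 0.73 to 0.81, but it was 0.19 in the calves under and 0.23 in those over 5 CPM of AVP, a setting added after the data were seen that has fewer calves and a smaller range. That of PDYN with AVP was 0.35 and 0.41 in the same sets. That of PENK with HCRT passed the threshold within HI (0.65) and without calves 911 and 2532 together (0.57), and it was 0.30 to 0.45 with each calf left out, past the threshold without calf 911 or calf 2532. The cause was not tested. That of PDYN with AVP was -0.017 to 0.18 with each calf left out, below 0 without calf 2346, and that of PDYN with HCRT 0.16 to 0.34.

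The paper states that calves were blocked by age, body weight, sire and farm of origin. It also states that healthy calves with a daily gain close to the mean of their group were selected. The labels do not give the block of a calf. The replicate numbers were given in accession order within each diet and tie no HI calf to a MOD calf. No paired or blocked analysis was therefore possible, and the p-values ignore the blocks. The 95% intervals on the diet folds (0.190 to 1.35 for PENK, 0.315 to 1.25 for PDYN) limit what 29 calves can show. At the median of 142 reads for PENK and 292 for PDYN, counting error is 8.39% and 5.85%, so that the spread between calves and not depth sets these intervals.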
